A study of Mus musculus with 15 samples.

Results

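The Obox genes are a family of mouse homeobox genes, named for their expression in oocytes, and 5 of them, Obox1, Obox2, Obox3, Obox5 and Obox6, were followed here by their symbols. They are 5 of the 55401 genes in the count files and 5 of 55 annotated genes whose symbol begins with Obox. A homeobox encodes a domain that binds DNA, and proteins with this domain regulate the transcription of other genes. Obox transcripts are stored in the growing oocyte and carried into the embryo, where Obox proteins take part in activation of the zygotic genome. The fully grown oocyte is transcriptionally quiet, so its store of such transcripts is laid down during growth of the follicle.

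The series holds 15 libraries of ovarian oocytes from Kunming mice, each made from 6 pooled oocytes, and the animals behind each pool are not named. Oocytes grown in vivo (IVV, labelled Invivo, replicates 2 to 4) were compared with oocytes of preantral follicles cultured without (IVG, labelled C) or with neurotrophin-4 (IVG-NT, labelled NT) for 6 or 10 days, in 5 groups of 3. No genotype is given for the mice, and the series gives an age of 12 to 14 days for the oocyte profiles. The methods give that age for the cultured follicles, name older mice as a further source of ovaries and give no age for the IVV donors, so the age of the donors and culture cannot be told apart. Neurotrophin-4 is a secreted ligand of the TrkB receptor, which ovarian cells carry.

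Total counts per library were 19.0 to 55.6 M counts, except for IVG-NT day 6 replicates 1 and 2, which held 5.95 and 7.13 M counts. The libraries fell into 2 kinds by the share of counts taken by the rRNA gene CT010467.1. In 9 rRNA-rich libraries (IVV replicate 3 and replicates 1 and 2 of each cultured group) the share was 12.5% to 37.9%, and in the other 6, called rRNA-poor, it was 0.187% to 0.714%. All 10 oocyte markers were detected in every library, with a summed level of 10437 to 19322 CPM (a gene's count per M counts of its library, after TMM normalization), against 5.05 to 237 for 10 granulosa cell markers, 0 to 36.3 for 8 theca and stroma markers and 0 to 53.1 for 6 macrophage markers. In bulk libraries fewer cells of a type and less RNA per cell cannot be told apart.

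The 5 genes are protein coding and lie within 1508 kb of chromosome 7 (GRCm38) that holds 53 Obox genes, of which 45 are pseudogenes. Obox2 (ENSMUSG00000074369) spans chr7:15388721-15398545 and Obox1 (ENSMUSG00000054310) chr7:15388948-15556866, both on the plus strand, with 59 bp of annotated exon in common. Obox3 (ENSMUSG00000066772) lies at chr7:15479825-15639902 on the minus strand, Obox5 (ENSMUSG00000074366) at chr7:15750131-15759800 on the plus strand, and Obox6 (ENSMUSG00000041583) at chr7:15833241-15839678 on the minus strand. The family also includes Obox7 (ENSMUSG00000055942, chr7:14659496-14665996, plus strand), which is described after the members because it held the most counts among the other Obox genes.

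The second coding exon shows how close the copies are, and therefore how far their reads can be assigned. It is printed for 5 genes 5′ to 3′ from the GENCODE vM21 transcripts, with bases that differ from Obox1 in capitals. The positions are chr7:15555505-15555704 (Obox1), chr7:15397188-15397386 (Obox2), chr7:15626796-15626995 (Obox3, minus strand), chr7:15757879-15758078 (Obox5) and chr7:14664380-14664579 (Obox7).
Obox1: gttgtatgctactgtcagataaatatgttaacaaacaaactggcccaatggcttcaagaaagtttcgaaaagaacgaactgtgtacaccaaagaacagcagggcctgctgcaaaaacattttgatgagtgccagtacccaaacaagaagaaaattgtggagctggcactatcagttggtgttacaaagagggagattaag
Obox2: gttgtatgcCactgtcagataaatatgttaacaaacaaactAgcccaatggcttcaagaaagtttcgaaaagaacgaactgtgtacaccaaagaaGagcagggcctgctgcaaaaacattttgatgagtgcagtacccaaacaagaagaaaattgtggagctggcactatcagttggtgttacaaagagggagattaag
Obox3: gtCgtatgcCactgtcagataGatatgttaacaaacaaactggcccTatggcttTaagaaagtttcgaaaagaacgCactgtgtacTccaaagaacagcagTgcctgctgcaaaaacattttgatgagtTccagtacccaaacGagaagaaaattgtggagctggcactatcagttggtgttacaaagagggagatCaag
Obox5: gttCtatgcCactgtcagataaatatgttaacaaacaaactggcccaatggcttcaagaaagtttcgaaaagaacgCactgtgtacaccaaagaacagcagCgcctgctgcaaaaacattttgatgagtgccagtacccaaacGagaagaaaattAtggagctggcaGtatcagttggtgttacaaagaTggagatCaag
Obox7: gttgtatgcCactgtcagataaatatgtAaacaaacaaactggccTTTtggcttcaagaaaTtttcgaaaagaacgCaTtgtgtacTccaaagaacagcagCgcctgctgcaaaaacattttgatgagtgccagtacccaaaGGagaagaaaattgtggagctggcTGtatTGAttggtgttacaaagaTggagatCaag
Of the 200 bases of Obox1, Obox2 differs at 3 and lacks 1, in the run at position 131 from the start of the exon. Obox5 differs at 9, Obox3 at 11 and Obox7 at 19. The annotated coding sequence of Obox2, which after the missing base is read in another frame, is 453 bases long against 612 for Obox1, 873 for Obox5, 1005 for Obox3 and 1041 for Obox6. Obox6 has 2 coding exons of other lengths and is not aligned above. Over the aligned coding bases, Obox1 was 98.5% identical to Obox2 and 95.6% to Obox5, whereas Obox6 was 76.6% to 81.1% identical to the 4 other members and Obox7.

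Stretches of annotated transcript that occur in no other gene measure how far a read can be given to 1 copy. For stretches of 50 bases this share was 34.9% for Obox2 and 42.6% for Obox1, but 79.8% for Obox3, 81.9% for Obox5 and 95.0% for Obox6. For stretches of 100 bases it was 52.8%, 57.7%, 91.1%, 98.2% and 100%. Obox1 and Obox2 counts therefore may be split between the copies in a way that the counts do not show, and the 2 genes are best read together. Judged by the annotated transcripts, Obox5 counts are nearly free of this limit for longer reads. The sequences of these genes in Kunming mice were not examined.

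**Figure D1:**
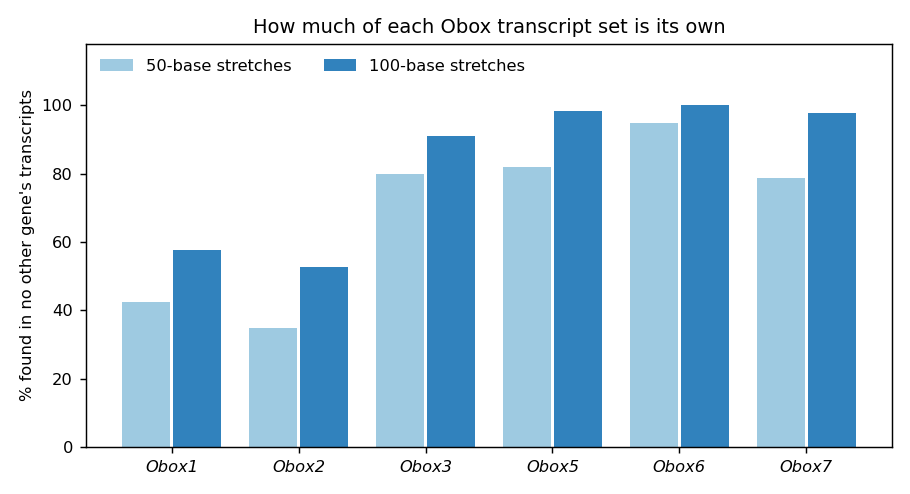
Share of each gene's annotated transcript stretches of 50 or 100 bases that occur in no other gene's transcripts, in percent (bars start at 0). Obox2 and Obox1 have the lowest shares, 34.9% and 42.6% at 50 bases, and Obox5 has 81.9%.

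Obox1, Obox2 and Obox5 were abundant in all groups, Obox3 was low, with 69 counts at most in a library, and Obox6 had 15 at most. Levels are given in CPM, and per kilobase of exon where genes are compared. Per kilobase, the IVV mean was 963 for Obox2, 663 for Obox1, 173 for Obox5 and 76.3 for Obox7, but 0.555 for Obox3 and 0.0509 for Obox6. By this measure Obox2 ranked 46 and Obox1 ranked 81 among 20977 tested genes in IVV oocytes, with Obox5 at 374 and Obox3 at 14469. These IVV means are over 2 rRNA-poor libraries and 1 rRNA-rich library. The 5 members together took 0.0585% to 0.852% of the counts of a library.

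Obox2, which had the highest mean in IVV oocytes, read 2531, 271 and 1955 CPM in IVV replicates 2, 3 and 4. In IVG day 10 the 3 libraries read 442, 282 and 598 CPM, and in IVG-NT day 10 they read 368, 433 and 2222 CPM. At day 6 the values were 283, 230 and 1166 CPM in IVG and 139, 346 and 3533 CPM in IVG-NT. In every group the rRNA-poor libraries lay above the rRNA-rich ones, and no 2 groups were separated.

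Obox1 had a spread like that of Obox2, with 1902, 218 and 1660 CPM in IVV. IVG day 10 read 401, 345 and 519 CPM and IVG-NT day 10 read 318, 365 and 2317 CPM. IVG day 6 read 274, 203 and 1114 CPM and IVG-NT day 6 read 18.3, 308 and 2401 CPM. The lowest of these, IVG-NT day 6 replicate 1, rests on 101 counts in one of the shallow libraries and was the only library in which Obox1 and Obox2 parted. The count of Obox1 per count of Obox2 was 0.131 there and 0.680 to 1.22 in the other 14 libraries.

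Obox5 varied less. It read 375, 182 and 549 CPM in IVV replicates 2, 3 and 4, and 519, 531 and 801 CPM in IVG day 10. IVG-NT day 10 read 348, 372 and 1002 CPM, IVG day 6 read 354, 308 and 539 CPM, and IVG-NT day 6 read 542, 323 and 1054 CPM. Of the 3 IVG day 10 libraries, 2 lay below the highest IVV library, so these groups overlap, although the lowest IVV library was below every cultured library. In order of group means, IVG-NT day 6 (640 ± 375 CPM, SD, n = 3) was followed by IVG day 10 (617 ± 159), IVG-NT day 10 (574 ± 371), IVG day 6 (401 ± 122) and IVV (369 ± 183), and neighbours in this order differed by less than their spread.

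For Obox1 and Obox2 the order of group means was another. For Obox1 it ran from IVV (1260 ± 910 CPM, SD, n = 3) through IVG-NT day 10 (1000 ± 1141), IVG-NT day 6 (909 ± 1300) and IVG day 6 (530 ± 507) to IVG day 10 (422 ± 88.8). For Obox2 it ran from IVV (1586 ± 1175) through IVG-NT day 6 (1339 ± 1902), IVG-NT day 10 (1008 ± 1052) and IVG day 6 (560 ± 526) to IVG day 10 (441 ± 158). IVG day 10 was the group with the lowest mean for both genes, and again neighbours differed by less than their spread. The IVV means hold 2 rRNA-poor libraries and those of the cultured groups 1, and both genes were lower in rRNA-rich libraries, as given further on.

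Obox3, a copy that is transcribed in the early embryo, had 0 to 69 counts per library (0 to 4.18 CPM). The highest value, 4.18 CPM, was in IVV replicate 3, where the other IVV libraries read 0.440 and 0.691 CPM. It was not counted in IVG day 10 replicate 2 or in IVG-NT day 6 replicates 1 and 2. Obox6 had 15 counts at most (IVG-NT day 10 replicate 3) and 0 in 10 of 15 libraries. At these depths 0 counts allow a level of up to 0.0489 to 0.542 CPM, on 3 counts per library and for counting error only. Obox6 did not pass the filter on low counts and was not tested.

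**Figure D2:**
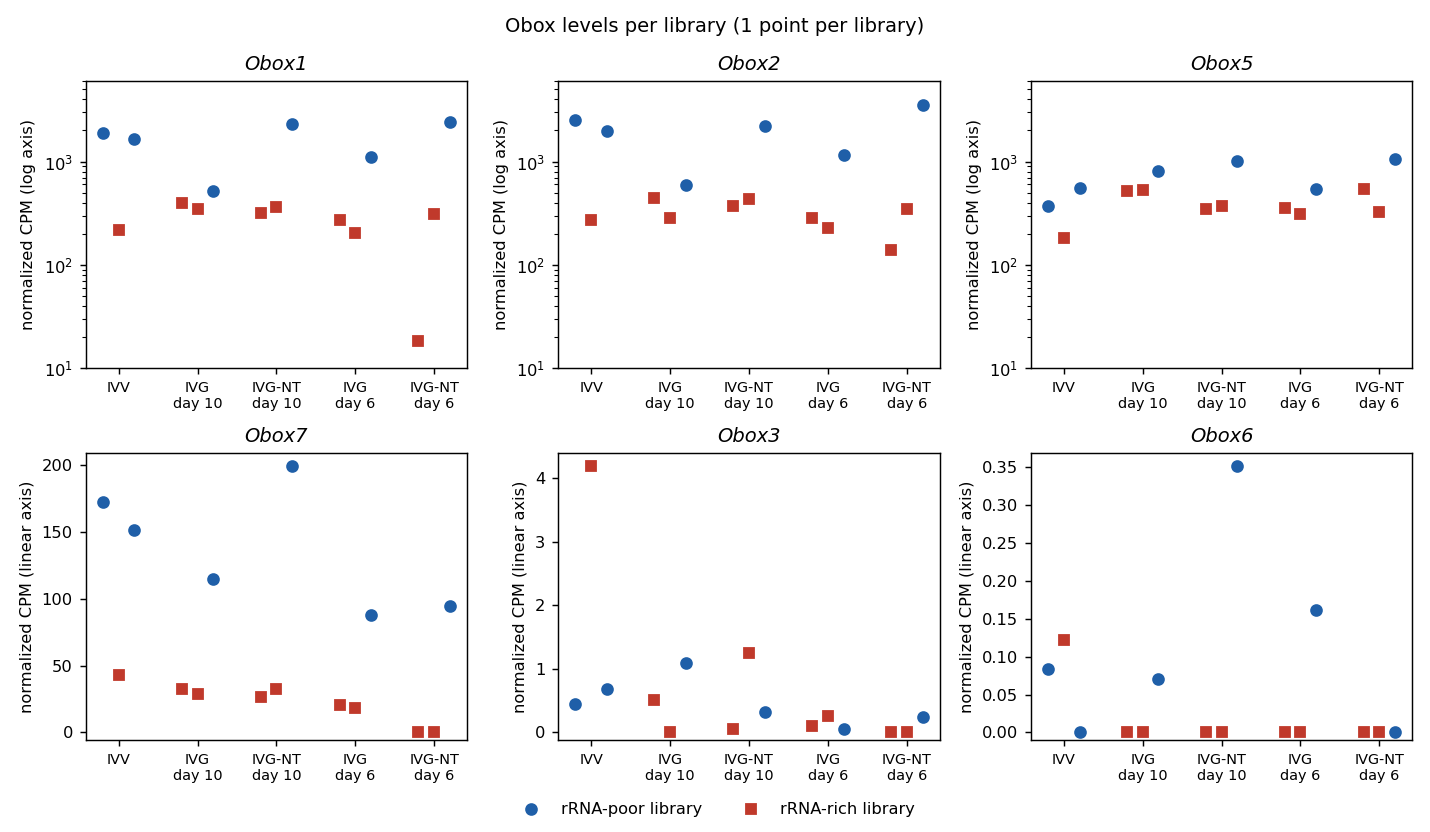
Normalized level (CPM) of each member and of Obox7 in each of the 15 libraries, by group, 1 point per library and no error bars; circles are rRNA-poor and squares rRNA-rich libraries. The axis is logarithmic for Obox1, Obox2 and Obox5 and linear for the others; Obox1 lies at 18.3 to 401 CPM in all rRNA-rich and at 519 to 2401 CPM in all rRNA-poor libraries.

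Obox1 and Obox2 separated the 2 kinds of library, which they did for no pair of groups. In the rRNA-poor libraries Obox1 read 519 to 2401 CPM and Obox2 598 to 3533 CPM, and in the rRNA-rich ones 18.3 to 401 and 139 to 442 CPM, without overlap. The share of all genes that separate the kinds in this way was not counted, so the separation is not shown to be particular to these genes. Obox5 overlapped, at 375 to 1054 against 182 to 542 CPM. In a fit with group and kind, the log2 difference of rRNA-rich from rRNA-poor libraries was −2.62 for Obox1 (SE 0.52, adjusted p = 0.0029), −2.58 for Obox2 (SE 0.36, adjusted p = 2.1e-04) and −1.10 for Obox5 (SE 0.21, adjusted p = 0.0021, edgeR quasi-likelihood F test). Against the median of all tested genes, −0.54, and with 35.1% of genes called between the kinds (22.8% lower in the rRNA-rich libraries), Obox3 differed by 0.05 (SE 1.66). IVV has 1 rRNA-rich library and every cultured group has 2, so the kind and the step from in vivo to culture are partly confounded, and what made the kinds differ was not tested.

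The comparison of IVG day 10 with IVV oocytes asks what culture changes in the fully grown oocyte. No member was called with the threshold of the study (log2 fold change beyond 1 and unadjusted P under 0.05), where 2.76% of the 21009 tested genes were. Obox1 had a log2 fold change of −1.58 (SE 1.21), Obox2 of −1.85 (SE 1.10) and Obox5 of 0.74 (SE 0.64), and Obox3 of −1.72 (SE 1.97). The adjusted p was 1 for each in edgeR. The median over all tested genes was −0.20 with TMM normalization and −0.39 with DESeq2 size factors.

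With the kind of library in the fit, Obox5 was higher in IVG day 10 than in IVV oocytes. Its log2 fold change was 1.21 (SE 0.33), called where 3.83% of genes were called and 1.24% called higher, and its adjusted p over all genes was 1, so it failed the correction in edgeR. Among rRNA-rich libraries the IVG values of 519 and 531 CPM stood against 182 CPM in IVV replicate 3, and among rRNA-poor ones 801 CPM stood against 375 and 549 CPM. All 3 IVG libraries thus lay above every IVV library of their kind. IVV replicate 3 is the only rRNA-rich IVV library, and the share of all genes with this pattern was not counted. Leaving out each of the 6 libraries in turn gave 1.09 to 1.44, called each time. Obox1 (0.06, SE 0.80) and Obox2 (−0.31, SE 0.55) were near 0 in this fit, so their lower means in IVG were not kept once the kind was included.

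In IVG-NT day 10 oocytes the difference of Obox5 from IVV had the same sign and was smaller. Without the kind in the fit, the log2 fold changes from IVV were −0.33 (Obox1), −0.65 (Obox2), −1.69 (Obox3) and 0.64 (Obox5), and no member was called where 3.29% of genes were. With it, Obox5 was at 0.95 (SE 0.32, adjusted p = 1 in edgeR), which passed the threshold on P but not that on the fold, so that it was not called, where 4.31% of genes were and 0.961% were called higher. The 3 IVG-NT libraries lay above every IVV library of their kind, at 348 and 372 against 182 CPM and at 1002 against 375 and 549 CPM. Here too the 182 CPM is a lone rRNA-rich IVV library, and the share of all genes with this pattern was not counted. Leaving out 1 library gave 0.74 to 1.14, called in 2 of 6 cases. Both comparisons share the IVV libraries.

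**Figure D3:**
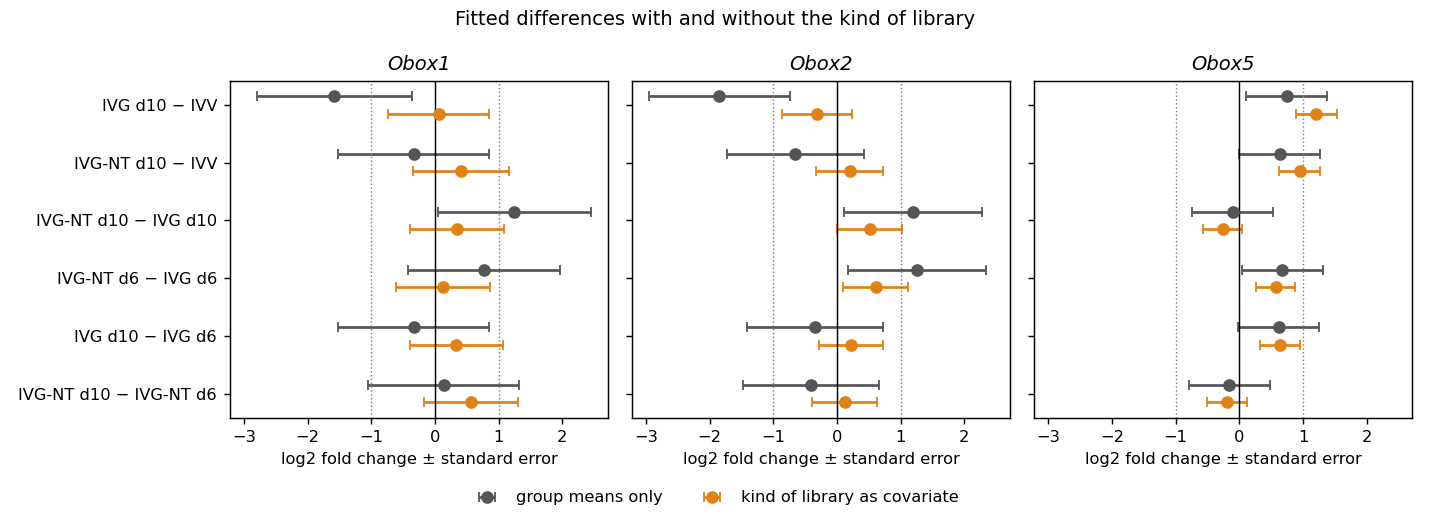
Fitted log2 fold changes of Obox1, Obox2 and Obox5 in 6 comparisons, with standard errors as bars; grey, group means only, and orange, with the kind of library as covariate. Dotted lines mark 1 and −1. The standard errors of Obox5 for IVG day 10 against IVV fall from 0.64 to 0.33 with the covariate, and the value moves from 0.74 to 1.21.

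The addition of neurotrophin-4 was asked at both days. At day 10, IVG-NT differed from IVG by 1.25 for Obox1 (SE 1.20), 1.19 for Obox2 (SE 1.08), 0.03 for Obox3 and −0.11 for Obox5 (SE 0.63), and no member was called where 1.24% of genes were. The Obox1 and Obox2 values rest on IVG-NT replicate 3, the rRNA-poor library of its group, and without it they were −0.31 and −0.14. Leaving it out sets only rRNA-rich IVG-NT libraries against IVG libraries of both kinds. With all libraries and the kind in the fit, the differences were 0.35 (SE 0.74) for Obox1 and 0.51 (SE 0.51) for Obox2. At day 6, the differences were 0.78 (Obox1), 1.26 (Obox2), −0.42 (Obox3) and 0.68 (Obox5), with none called where 11.6% of genes were. The test of the difference between the days gave 0.47, −0.07, 0.45 and −0.78 for Obox1, Obox2, Obox3 and Obox5, with none called where 6.37% of genes were. Without the shallow IVG-NT day 6 libraries, Obox2 at day 6 was at 2.71, on 1 remaining IVG-NT library that is assumed to vary like the other groups. That library is rRNA-poor and was set against 2 rRNA-rich libraries and 1 rRNA-poor library of IVG, and the difference between the kinds, −2.58 for Obox2, is of similar size.

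Day 10 was compared with day 6 to follow growth in culture. In IVG, Obox5 had a log2 fold change of 0.62 (SE 0.64), or 0.64 (SE 0.31) with the kind in the fit, and Obox1 (−0.33) and Obox2 (−0.34) were near 0. In IVG-NT the values were 0.14, −0.41, 2.36 and −0.16 for Obox1, Obox2, Obox3 and Obox5. No member was called, where 2.90% and 12.7% of genes were called in the 2 comparisons. Across the 6 pairwise comparisons 0 members were called by edgeR, 0 had an unadjusted P under 0.05, and DESeq2 also called 0. Two-sided exact permutation tests of 24 combinations of tested member and comparison, whose smallest possible p with 3 against 3 is 0.1, gave a lowest Benjamini-Hochberg value of 0.982, and in none of the 24 did the groups separate. Of all tested genes, groups did not overlap for 11.9% (IVG day 10 and IVV), 11.6% (IVG-NT day 10 and IVV), 3.59% (IVG-NT and IVG, day 10), 8.45% (the same at day 6), 7.42% (IVG, day 10 and day 6) and 11% (IVG-NT, day 10 and day 6).

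The balance between Obox5 and the Obox1 and Obox2 pair is a ratio within each library and is free of library size. The count of Obox5 per count of Obox1 and Obox2 was 0.0845, 0.373 and 0.152 in IVV and 0.615, 0.848 and 0.717 in IVG day 10. In IVG-NT day 10 it was 0.507, 0.465 and 0.221, in IVG day 6 0.637, 0.713 and 0.236, and in IVG-NT day 6 3.44, 0.494 and 0.178. All IVG day 10 libraries lay above all IVV and all IVG-NT day 10 libraries, and IVG-NT day 10 overlapped IVV. This ratio was chosen after the values had been seen, so it has no test. Except in IVG day 10, the rRNA-poor library of a group had a lower ratio than its rRNA-rich libraries, and IVG-NT day 6 replicate 1 stood apart through its 101 counts of Obox1.

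**Figure D4:**
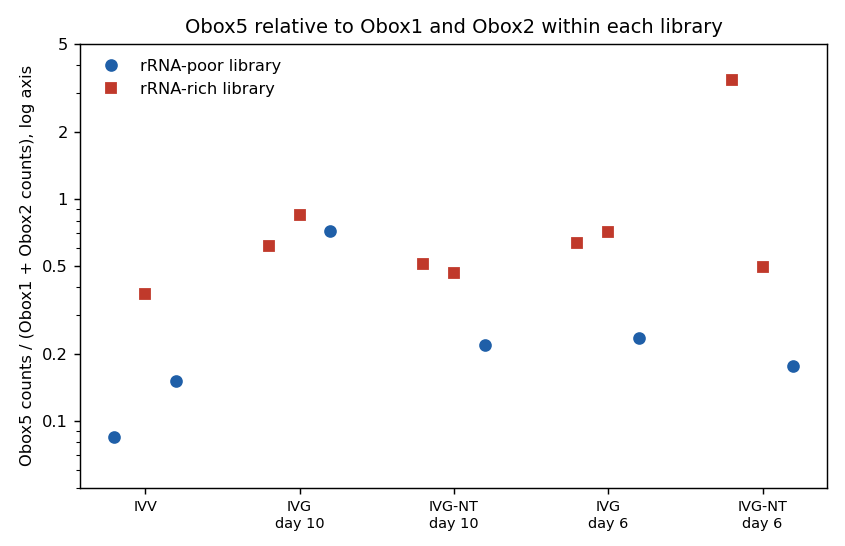
Counts of Obox5 divided by the summed counts of Obox1 and Obox2 in each library (log axis), by group, 1 point per library. IVG day 10 lies at 0.615 to 0.848, above IVV at 0.0845 to 0.373 and IVG-NT day 10 at 0.221 to 0.507. The ratio was chosen after the values had been seen, and the share of other gene ratios that separate these groups was not counted. Squares are rRNA-rich and circles rRNA-poor libraries.

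Among the other Obox genes, Obox7 had the levels nearest to those of the members. It read 172, 43.0 and 152 CPM in IVV, 32.3, 28.5 and 115 CPM in IVG day 10 and 26.5, 32.1 and 199 CPM in IVG-NT day 10. At day 6 it read 20.4, 18.4 and 88.1 CPM in IVG and 0, 0 and 94.6 CPM in IVG-NT, the zeros being the shallow libraries. The rRNA-poor libraries, at 88.1 to 199 CPM, did not overlap the rRNA-rich ones, at 0 to 43.0 CPM (log2 difference −3.24, SE 0.87, adjusted p = 0.016 in edgeR). As for Obox1 and Obox2, the share of all genes that separate in this way was not counted. Obox1, Obox2, Obox5 and Obox7 held 99.6% to 99.9% of all Obox counts in 12 libraries, 94.7% in IVV replicate 3 and 90.3% and 87.5% in the shallow IVG-NT day 6 replicates 1 and 2.

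The remaining counts in those 3 libraries fell mostly on pseudogene copies. IVV replicate 3 had counts in 25 Obox genes and 588 counts on pseudogenes, whereas IVV replicates 2 and 4 had counts in 12 and 15 Obox genes. In IVG-NT day 6 replicate 2, Obox3-ps6 alone had 409 counts (71.2 CPM), against at most 1.85 CPM in the 14 other libraries. In IVG-NT day 6 replicate 1, Obox3-ps8 had 324 counts (58.5 CPM), against at most 3.55 CPM elsewhere. Obox8, the remaining protein-coding copy, was counted only in these shallow libraries, with 92 counts in replicate 1 and 23 in replicate 2. Of 55 Obox genes 36 had a count in at least 1 library and 11 were tested, and the pseudogenes called between groups (Obox3-ps4, Obox3-ps5, Obox3-ps6 and Obox4-ps27) had groups at or near 0 counts, so their fold changes are not given.

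Related homeobox genes of the oocyte and of the group near Crx were described beside the members, with 8 of 12 tested. None was called between IVG day 10 and IVV (median log2 fold change 0.58, all genes −0.20) or between IVG-NT and IVG at day 10 (median −0.09, all genes 0.01). The smallest P in the first comparison belonged to Pou5f1, the pluripotency factor, at 1.55 (SE 0.86), and to Nobox, a regulator of oocyte genes in the follicle, at 0.97 (SE 0.58). Nobox read 256 to 446 CPM in IVV and 356 to 831 CPM in IVG day 10, so the groups overlapped. Between IVG-NT day 10 and IVV 0 were called higher and 1 lower (Duxf3, a Dux gene, called on 1 IVV library, since it read 0, 0 and 16.6 CPM in IVV), where 3.29% of all genes were called. At day 6, 1 was higher in IVG-NT than in IVG and 0 lower (Pou6f1), between the days 0 were called in IVG, and 2 were lower in IVG-NT (Duxf3 and Pou6f1), where 11.6%, 2.9% and 12.7% of all genes were called. Duxf3 is in the list of zygotic genes as well. The calls that involve day 6 rest on the shallow IVG-NT day 6 libraries. Duxf3 read 252 and 276 CPM in replicates 1 and 2 and 0.147 CPM in replicate 3. Pou6f1 read 74.3 CPM in replicate 2 and 0 in replicates 1 and 3. Markers of other cells moved in the same comparisons: 2 of 4 macrophage and 1 of 7 theca and stroma markers were higher and 2 of 9 granulosa markers lower in IVG-NT than in IVG at day 6, and 4 of 9 granulosa markers were higher and 1 of 4 macrophage markers lower at day 10 than at day 6 in IVG-NT. Their part in the result was not tested.

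Maternal factors of the transition from egg to embryo, 27 of 27 tested, had 1 called higher and 1 lower in both IVG day 10 and IVG-NT day 10 against IVV, where 2.76% and 3.29% of all genes were called, with medians of −0.01 and −0.004. The gene called higher was Zfp57, which protects imprinted methylation. It read 29.6 and 55.2 CPM in the rRNA-poor and 181 CPM in the rRNA-rich IVV libraries. In IVG day 10 it read 254 CPM in the rRNA-poor and 925 and 1160 CPM in the rRNA-rich libraries (log2 fold change 3.14, SE 1.30, adjusted p = 1 in edgeR). In IVG-NT day 10 it read 80.2 CPM in the rRNA-poor and 1521 and 1541 CPM in the rRNA-rich libraries (log2 fold change 3.56, SE 1.33, adjusted p = 1 in edgeR) and overlapped IVV. In each of these groups Zfp57 was lower in the rRNA-poor libraries, of which IVV has more. No value with the kind in the fit is given for it. The gene called lower, Tead4, had at most 1.70 CPM in IVV and none in the day 10 cultures. Between IVG-NT and IVG 0 were called at day 10, and 1 higher (Tead4) and 1 lower (Padi6, −1.42) at day 6. Of all genes, 1.24% were called at day 10 and 11.6% at day 6. Between the days, 0 were called in IVG and 1 lower (Tead4) in IVG-NT, where 2.9% and 12.7% of all genes were called. In IVG-NT, Tead4 was above 0 in 1 day 6 library, the shallow replicate 1, at 9.03 CPM.

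Genes first transcribed at activation of the zygotic genome had 8 of 12 members tested and low levels. None was called between IVG day 10 and IVV (median −1.59, all genes −0.20), and 3 were lower and 0 higher in IVG-NT day 10 than in IVV (median −2.03, all genes −0.19), where 3.29% of all genes were called. In the same comparison 2 of 7 theca and stroma markers were called lower (median −4.55), with a summed level of 9.21 to 21.6 CPM in IVV and 0.541 to 2.76 CPM in IVG-NT day 10, and their part in the result was not tested. Among the 3 genes, Duxf3 is given above, Zfp352 read 0 to 0.849 CPM in IVV and 0 in IVG-NT day 10, and Zscan4c, of the cluster that marks the embryo at this stage, read 0.880 to 5.40 CPM in IVV and 0 to 0.0935 CPM in IVG-NT day 10 (adjusted p = 1 in edgeR). None was called for IVG-NT against IVG at day 10 or day 6 (medians −0.70 and −0.79), where 1.24% and 11.6% of all genes were. Between the days 1 was higher and 0 lower in IVG (Usp17le), and 1 was higher (Usp17le) and 2 lower (Duxf3 and Zfp352) in IVG-NT. For the difference between the days, 0 higher and 1 lower homeobox gene (Pou6f1), 0 maternal and 0 zygotic genes were called, where 6.37% of all genes were.

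The genes whose pattern over the 15 libraries was most like each member were found by the root mean square difference of centred log2 CPM. For Obox1 these were Unc50 (0.45), Gm14820 (0.52) and Gm13835 (0.53), and for Obox2 2700062C07Rik (0.53), Eef1a2 (0.55) and Mir17hg (0.56). Obox5 was nearest to Mterf4 (0.32), Kif17 (0.33) and Ndufa10 (0.35), and Obox3 to Gm48931 (1.03), A930037H05Rik (1.04) and Smad6 (1.10). Obox1 and Obox2 differed from each other by 0.71, Obox2 and Obox5 by 1.16, and Obox1 and Obox5 by 1.58. The nearest genes were picked from all tested genes outside the family, whereas the tested copies are few. That such genes were nearer than the copies is therefore no result about the family. These libraries share the kinds and depths given above.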

How the data were processed

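Oocyte RNA was amplified with SMART-Seq2, 15 libraries of 5 groups of 3. The authors trimmed reads, aligned them to mm10 with HISAT2, and deposited raw counts per Ensembl gene for each library; the counting step and its handling of reads that fit several copies are not given in the sources used here. Groups came from sample titles. Authors' tables of the whole series were not used.

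Symbols and transcripts came from GENCODE vM21 (99.5% of 55401 identifiers matched). Genes were kept with filterByExpr (minimum count 10; 21009 genes, 4 of 5 members), scaled with TMM, and compared in edgeR 4.0.16 (R 4.3.3) by its quasi-likelihood F test, from 1 fit of 15 libraries, with Benjamini-Hochberg adjustment over all genes. The test was run on simulated counts with the same dispersion for every gene and without the kinds of library. That check therefore does not show how the test performs at the spread of the present libraries. DESeq2 1.42.0, another filter, kind of library (limit 5% of counts in CT010467.1), replicate block and left-out libraries were alternatives. Log2 values used a prior count of 2. The 3 libraries of a group came from replicated experiments; the animals of each pool are not named.

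The members, gene lists, kinds and tests were chosen with earlier results of these data known. Text names every member, every other Obox gene with a count where a result turns on it, and, of the lists, genes among the 2 of smallest P in a list and comparison. Same-numbered libraries deviated together, with r over 0.1 in every pair, for IVG-NT and IVG day 10 (r = 0.37, 0.41 and 0.73) and for IVG day 10 and day 6 (0.23, 0.15 and 0.54). Replicates 1 and 2 of unlike number were as close. At day 10, r was 0.37 for IVG-NT replicate 2 and IVG replicate 1. For IVG day 10 replicate 2 and day 6 replicate 1 it was 0.26. A pairing by number is therefore shown by neither the data nor the labels, and the replicate block served only as an alternative. Replicate 3 is the rRNA-poor library of each cultured group, and replicate 1 of a group also deviated with replicate 2 of the other in these comparisons. The lowest r of a pair was 0.083 for IVG-NT and IVG day 6 and 0.066 for IVG-NT day 10 and day 6. With IVV numbered by sample title, r was negative in every same-numbered pair with IVV. With the libraries of each group taken in order instead, r with IVV was −0.29, 0.34 and 0.43 for IVG day 10. For IVG-NT day 10 it was −0.27, 0.40 and 0.46, so the result depends on the numbering.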

Additional observations from a re-analysis of the deposited data

Results flagged for a closer look

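The difference made by neurotrophin-4 was tested between day 10 and day 6 for every tested Obox gene, and only the pseudogene Obox3-ps4 had a call. Its fitted value was −15.5 (log2, adjusted p = 0.664 in edgeR). It was read in IVG-NT day 6 replicate 2 (183 counts) and replicate 3 (19 counts) and had 0 counts in replicate 1, in the 3 IVG day 6 and in the 3 IVG-NT day 10 libraries, so the fitted size is no measure of the change. IVG day 10 had 8 counts in replicate 3 and 0 in the other libraries.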

How the results depend on the processing

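Settings other than leaving out a single library gave 222 fitted member values. Of these, 185 kept direction and side of the threshold, 33 changed sign and 4 passed the threshold. Values that changed sign were uncalled and ran from −1.32 to 0.91, and the cause was not tested. Among them, Obox1 and Obox2 in IVG day 10 against IVV were −1.58 and −1.85 in the main fit. In rRNA-rich libraries only, with a lone IVV library, they were 0.79 and 0.44. The count of members called in IVG day 10 against IVV was 1 with no filter on low counts (Obox2, −1.87, adjusted p = 0.802 in edgeR). It was also 1 with the kind as covariate (Obox5), where 3.83% of all genes were called. The share of all genes called with no filter is not given here. In rRNA-rich libraries only, Obox5 was at 1.55 against a lone IVV library assumed to vary like the other groups. Leaving out both shallow libraries, an alternative chosen after seeing the data, changed Obox2 for IVG-NT against IVG at day 6, as given above. DESeq2 and its size factors called no member. Sign changes with the kind as covariate were Obox1 0.061, 0.41 and 0.34 (IVG day 10 and IVG-NT day 10 against IVV, IVG day 10 against day 6) and Obox2 0.20, 0.22 and 0.12 (IVG-NT day 10 against IVV, IVG and IVG-NT day 10 against day 6). In rRNA-rich libraries only, against IVV, Obox1 was 0.79 and 0.67 and Obox2 0.44 and 0.59 (IVG, IVG-NT day 10); for IVG-NT against IVG, Obox1 was −0.12 at day 10 and −0.60 at day 6, and Obox2 −0.15 at day 6; for day 10 against day 6, Obox1 was 0.62 and Obox2 0.47 in IVG and Obox2 0.77 in IVG-NT; and the difference between days for Obox2 was 0.30. Obox3 for IVG-NT against IVG at day 10 was −0.10 (DESeq2 test and size factors), −0.029 (no filter), −0.090 (2 groups only) and −0.017 (without shallow libraries), at day 6 0.014 (DESeq2) and 0.91 (without shallow libraries), and for the difference between days −0.12, −0.016 and −0.92. Obox1 for IVG-NT day 10 against day 6 was −0.013 with DESeq2 and with its size factors and −1.32 without shallow libraries, where the difference between days was −0.96. With the replicate block, Obox1 and Obox2 in IVG day 10 against day 6 were 0.21 and 0.12, and the block changed no call. Leaving out 1 library changed no call without the kind in the fit. Ranges that crossed 0 were, for IVG-NT day 10 against IVV, −1.89 to 0.091 (Obox1) and −0.038 to 1.04 (Obox5); for IVG-NT against IVG at day 10, −0.31 to 1.70 (Obox1), −0.14 to 1.61 (Obox2), −1.43 to 1.10 (Obox3) and −0.78 to 0.17 (Obox5), and at day 6 −1.71 to 1.93, −1.22 to 2.39 and −5.29 to 0.36 (Obox1 to Obox3); for day 10 against day 6, −0.76 to 0.83 (Obox1) and −0.75 to 0.79 (Obox2) in IVG, and −1.41 to 2.62 (Obox1), −1.74 to 2.06 (Obox2) and −0.83 to 0.42 (Obox5) in IVG-NT; and for the difference between days −1.08 to 2.95, −1.40 to 2.41 and −1.06 to 5.32 (Obox1 to Obox3). Low counts limit Obox3 (69 at most) and Obox6 (15 at most), and the shallow libraries limit IVG-NT day 6.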
